A study of Mus musculus with 6 samples.

Results

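In the mouse, 10 genes for enzymes that attach fucose were followed in tuft-like and non-tuft-like medullary thymic epithelial cells (mTEC). They were taken by symbol as Fut1, Fut2, Fut4, Fut7, Fut8, Fut9, Fut10, Fut11, Pofut1 and Pofut2. All 10 were found among the 52636 gene rows of the count table, and all 10 were among the 32496 genes with enough counts to be tested. Both populations were sorted from the thymus of 6-week-old C57BL/6 mice as cells that bound the lectin UEA1 and were low for MHC class II and negative for CD80, Sca1 and CD63. For CD80, the paper gives tuft-like mTEC as low. Tuft-like mTEC were also positive for CD117 and CD66a, and non-tuft-like mTEC were negative for both. Each population gave 3 bulk libraries made with an ultra-low input RNA kit. Because both populations were gated on UEA1 binding, the libraries compare fucosyltransferase RNA between 2 UEA1-positive populations, with no UEA1-negative population beside them.

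UEA1 is a plant lectin that binds fucose in an alpha-1,2 linkage to a terminal galactose, the H structure, and it is widely used to mark mTEC. The H structure is made by FUT1 and by FUT2, which belong to 1 enzyme family and are encoded close to each other, while the other fucosyltransferases join fucose to other sugars or directly to proteins. All of them draw on the same donor, GDP-fucose, and the alpha-1,2 enzymes need a galactose-ended chain as acceptor.

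Fut1 is at chr7:45617289-45621059 on the plus strand of mm10 and Fut2 is at chr7:45648591-45666394 on the minus strand, with 27531 bases between them. Another alpha-1,2 relative, Sec1, which is a pseudogene in humans, lies at chr7:45677686-45694402 on the minus strand, 11291 bases beyond Fut2. Because reads are counted for 1 gene only where the sequence tells genes apart, stretches of the coding exons are shown where the 3 genes are most alike. Aligned over their coding sequences, Fut1 and Fut2 had 65.3% of bases in common, Fut1 and Sec1 63.3%, and Fut2 and Sec1 82.4%. In the following stretches of GENCODE M21 transcripts, 5′ to 3′ on the strand of each gene, capitals mark the longest run of bases, 24 long, that Fut1 shares with either of the others. The stretches are at chr7:45619220-45619333 for Fut1, chr7:45650688-45650801 for Fut2 and chr7:45678891-45679004 for Sec1.
Fut1: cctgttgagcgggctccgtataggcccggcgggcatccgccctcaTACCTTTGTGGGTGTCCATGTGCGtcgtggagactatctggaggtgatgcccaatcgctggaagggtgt
Fut2: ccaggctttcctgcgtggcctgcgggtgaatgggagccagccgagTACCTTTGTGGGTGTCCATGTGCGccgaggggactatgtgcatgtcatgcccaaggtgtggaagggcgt
Sec1: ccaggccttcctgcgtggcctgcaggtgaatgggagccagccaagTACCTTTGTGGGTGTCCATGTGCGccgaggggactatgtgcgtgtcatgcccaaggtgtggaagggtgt
Fut2 and Sec1 share a longer run of 180 bases, again in capitals, within stretches at chr7:45650751-45651020 for Fut2 and chr7:45678954-45679223 for Sec1.
Fut2: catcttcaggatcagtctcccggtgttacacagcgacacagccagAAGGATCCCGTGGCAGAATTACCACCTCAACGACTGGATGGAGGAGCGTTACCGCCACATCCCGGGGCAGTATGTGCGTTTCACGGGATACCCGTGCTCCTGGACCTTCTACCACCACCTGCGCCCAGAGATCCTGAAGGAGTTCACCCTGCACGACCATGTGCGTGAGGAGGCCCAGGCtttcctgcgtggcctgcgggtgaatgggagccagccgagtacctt
Sec1: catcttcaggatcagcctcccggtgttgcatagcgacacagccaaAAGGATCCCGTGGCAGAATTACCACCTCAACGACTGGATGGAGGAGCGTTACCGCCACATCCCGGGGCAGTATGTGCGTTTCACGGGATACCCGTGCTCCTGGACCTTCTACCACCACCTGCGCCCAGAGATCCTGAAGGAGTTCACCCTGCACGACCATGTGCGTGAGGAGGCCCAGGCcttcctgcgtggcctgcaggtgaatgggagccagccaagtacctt
No stretch of 50 bases of the Fut1 transcript occurred in the Fut2 or Sec1 transcript. Of the 2906 such stretches in the Fut2 transcript, 159 also occurred in Sec1. Reads lying wholly within the capitals of that pair cannot be told apart between Fut2 and Sec1. The size of this effect on their counts was not tested.

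The libraries held 32582788, 48369825 and 28704373 reads counted on genes for non-tuft-like replicates 1 to 3 and 20097617, 34243912 and 45928255 for tuft-like replicates 1 to 3. Levels are given in CPM, the read count of a gene relative to the library total, after TMM scaling between libraries, and 3 counts corresponded to 0.0639 to 0.124 CPM. The share of reads that fell on no annotated exon was 34.4%, 36.6% and 52.5% in non-tuft-like mTEC and 61.6%, 47.6% and 19.7% in tuft-like mTEC. Tuft-like replicate 3 therefore had the lowest share and tuft-like replicate 1 the highest. The 1134 olfactory receptor genes, which are mainly used in the nose although mTEC can transcribe genes of many tissues at low levels, moved in the same order, with a median per kilobase of exon of 0.00762, 0.0264 and 0.283 CPM in non-tuft-like and 0.436, 0.164 and 0 CPM in tuft-like replicates. The labels do not say whether replicates came from separate animals, so the p-values measure the spread between these libraries. The tuft markers differed in the direction of the labels, but their RNA was also present in non-tuft-like mTEC. Mean levels there were 217 CPM for Avil, 163 for Gnat3, 118 for Pou2f3, 105 for Trpm5, 28.5 for Dclk1 and 3.92 for Il25. All 6 tuft genes listed, Dclk1, Trpm5, Pou2f3, Il25, Gnat3 and Avil, rose in tuft-like mTEC (edgeR, FDR threshold 0.05), their median log2 fold change being 4.34, and the gate gene Ceacam1, which encodes CD66a, rose by 4.12. Kit, which encodes CD117, reached 1.24 on the log2 scale, with an edgeR FDR of 0.0678. It stood at 185, 176 and 141 CPM in non-tuft-like and 301, 451 and 433 CPM in tuft-like mTEC. The genes of 3 markers for which both populations were gated negative were lower in tuft-like mTEC without overlap, and none passed. Cd63 was at 340, 333 and 254 against 102, 115 and 227 CPM (edgeR FDR 0.252). Ly6a, which encodes Sca1, was at 98.6, 93.4 and 48.1 against 43.6, 25.7 and 36.4 CPM (FDR 0.173). Cd80 was at 18.9, 12.3 and 9.12 against 3.84, 3.92 and 0.138 CPM (FDR 0.557). Epcam and Krt8, which mark epithelium, were present in every library, with Epcam between 229.5 and 1041 CPM.

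Fut1 RNA was lower in tuft-like mTEC, and Fut2 RNA was higher without reaching the threshold. Of the 10 genes, only Fut1 passed an FDR of 0.05 in edgeR's quasi-likelihood test, and it fell. Over all tested genes the same test called 2.11% in either direction, 1.16% as higher and 0.951% as lower, and among genes averaging at least 10 CPM it called 5.84%. For 3 of the 10 genes the 2 sets of libraries did not overlap (Fut2 and Fut7 higher, Fut1 lower), against 16.0% of all tested genes and 28.2% of those averaging at least 10 CPM. The median log2 fold change of the 10 genes was 0.16, against 0.02 over all tested genes. In bulk RNA, fewer cells with a transcript and less of it per cell cannot be told apart.

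**Figure D1:**
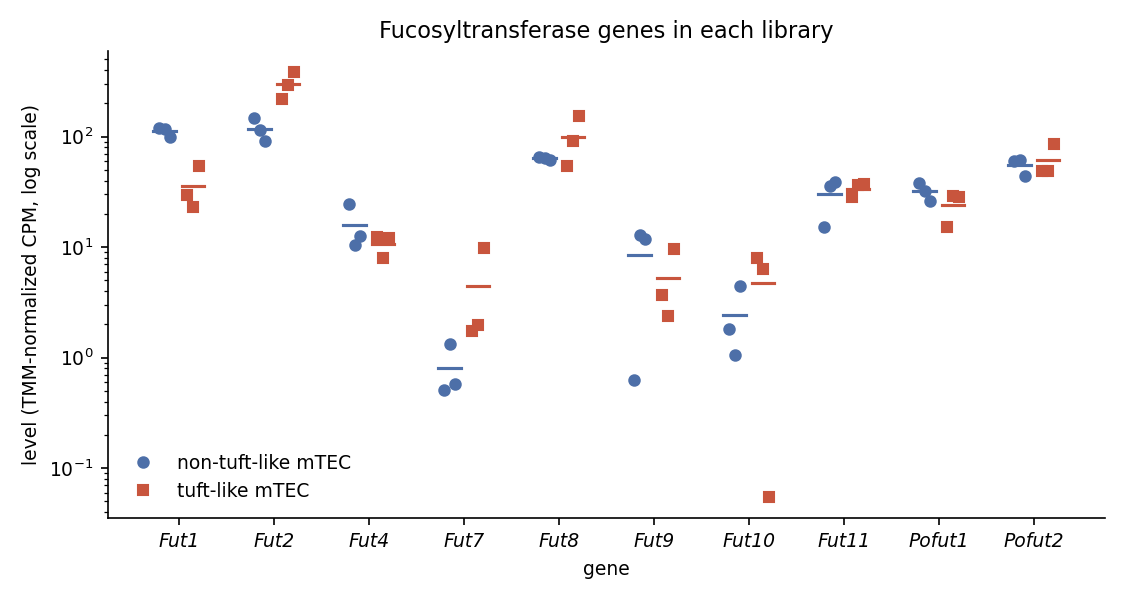
Level of each fucosyltransferase gene in TMM-normalized CPM on a log axis, with 1 point per library (circles, non-tuft-like mTEC; squares, tuft-like mTEC; n = 3 each) and a line at each mean. The tuft-like points lie below the non-tuft-like points for Fut1 and above them for Fut2 and Fut7.

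Fut1 stood at 120.5, 117.9 and 100.4 CPM in the non-tuft-like libraries and at 29.7, 22.9 and 54.0 CPM in the tuft-like libraries. The highest tuft-like library, replicate 3, was still well below the lowest non-tuft-like library. Mean levels were 112.9 ± 10.9 and 35.5 ± 16.3 CPM (SD, n = 3 each), a 3.18-fold difference. The log2 fold change was -1.67 with a standard error of 0.35 (95% interval -2.45 to -0.89) and edgeR gave an FDR of 0.0394. The counts behind these levels were 3820, 5537 and 3159 against 718, 783 and 1954. The call held in all 9 other fits to the 6 libraries, but with 1 library left out it held only without tuft-like replicate 3 (edgeR FDR 0.00536). The FDR was 0.0914, 0.141 and 0.0507 without non-tuft-like replicate 1, 2 and 3, and 0.0926 and 0.192 without tuft-like replicate 1 and 2.

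Fut2 ran the other way. It stood at 148.6, 114.6 and 91.3 CPM in non-tuft-like mTEC and at 221.2, 291.5 and 385.3 CPM in tuft-like mTEC. All tuft-like libraries were above all non-tuft-like libraries, and tuft-like replicate 3 was highest. The means were 118.2 ± 28.8 and 299.3 ± 82.3 CPM (SD, n = 3 each), a ratio of 2.53. The log2 fold change was 1.34 with a standard error of 0.32 (95% interval 0.63 to 2.05), and the edgeR FDR of 0.0689 missed the threshold. Fut2 passed in 8 of the 9 other fits to the 6 libraries, with an FDR between 0.000584 and 0.193 over all 9, and of the fits with 1 library left out it passed only without tuft-like replicate 1 (edgeR FDR 0.0317). An exact permutation test of 3 against 3 libraries cannot give a two-sided p below 0.10, so it was not used for either gene.

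Sec1 was scarcer than both. It was measured at 12.1, 23.8 and 17.1 CPM in non-tuft-like and 5.66, 9.97 and 14.4 CPM in tuft-like mTEC. The populations overlapped, and the log2 fold change of -0.82 (SE 0.56) did not pass (edgeR FDR 1). Its annotated exons overlap those of Ntn5 on the other strand over 519 bases, and the strand setting of the counting is not given in the sources used here.

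To set these genes side by side, levels were divided by the length of all annotated exons, in CPM per kb, and, as an alternative chosen after the data were seen, by the length of the longest coding transcript. The annotated exons of Fut2 cover 5431 bases and its longest coding transcript 2955, while Fut1 has 2786 and 2580, so the choice sets the level of Fut2 against that of Fut1. By all exons, Fut1 had 40.5 ± 3.93 CPM per kb in non-tuft-like and 12.7 ± 5.86 in tuft-like mTEC, while Fut2 had 21.8 ± 5.31 and 55.1 ± 15.2 (SD, n = 3 each). The ratio of Fut2 to Fut1 per length was 0.633, 0.499 and 0.467 in the non-tuft-like libraries and 3.82, 6.53 and 3.66 in the tuft-like libraries. By the transcript length, it was 1.08, 0.849 and 0.794 against 6.51, 11.1 and 6.23. Under either length Fut2 was the more abundant in each tuft-like library, and the tuft-like ratios were all above the non-tuft-like ratios. In non-tuft-like mTEC Fut1 was the more abundant in each library by all exons, whereas by the transcript the order turned in replicate 1 alone. The mean ratio was 0.533 ± 0.0881 and 4.67 ± 1.61 by all exons and 0.907 ± 0.150 and 7.95 ± 2.75 by the transcript. Fut1 made up 57.3%, 57.9% and 60.3% of the sum of Fut1, Fut2 and Sec1 in non-tuft-like mTEC and 19.8%, 12.5% and 20.2% in tuft-like mTEC by all exons, and 45.8%, 48.5% and 50.7% against 13.0%, 7.95% and 13.3% by the transcript.

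The libraries of the populations overlapped in the sum of the 3 genes under both lengths. By all exons it was 75.5, 73.1 and 59.8 CPM per kb in non-tuft-like mTEC and 53.7, 65.9 and 96.1 CPM per kb in tuft-like mTEC. The means of 69.5 ± 8.47 and 71.9 ± 21.9 differed by less than the spread between replicates. By the transcript the sum was 102, 94.1 and 76.7 against 88.6, 112 and 157 CPM per kb, with means of 90.9 ± 12.9 and 119 ± 34.9. The near equality of the means therefore depended on the length. Fut1 and Fut2 together held 63.6% to 70.2% of the per-length sum of the 10 genes in non-tuft-like mTEC and 64.4% to 65.7% in tuft-like mTEC by all exons, and 54.9% to 60.6% and 58.7% to 61.8% by the transcript. These ratios, shares and sums are descriptions and were given no test.

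**Figure D2:**
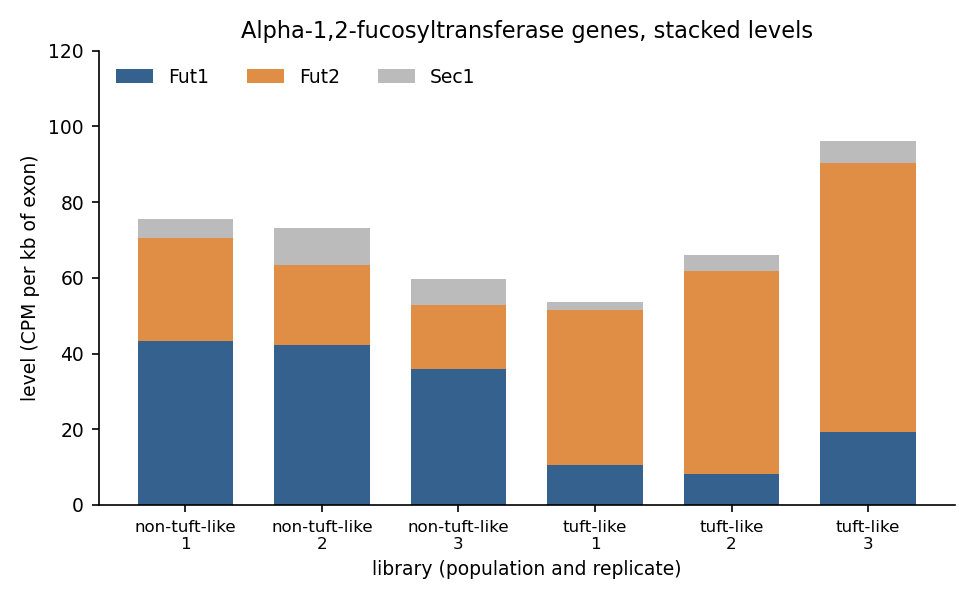
Stacked levels of Fut1, Fut2 and Sec1 in CPM per kb of all annotated exons, with 1 bar per library. The Fut1 part is smaller and the Fut2 part larger in each tuft-like bar than in any non-tuft-like bar, while the heights of the bars overlap between the populations.

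The genes around this pair on chromosome 7 were read in the order Bcat2, Fgf21, Fut1, Izumo1, Rasip1, Mamstr, Fut2, Sec1, Ntn5 and Car11. Of the 8 neighbours, counting Sec1, 1 passed the test. Fgf21, a secreted metabolic hormone just before Fut1, stood at 278, 152 and 114 CPM in non-tuft-like and 8.35, 6.28 and 4.94 CPM in tuft-like mTEC. It fell by 4.80 on the log2 scale (edgeR FDR 0.000492). Bcat2, a branched-chain amino acid transaminase, did not overlap between populations, but its log2 fold change of -0.90 did not pass (edgeR FDR 0.223). The 3 coding genes between Fut1 and Fut2 had log2 fold changes of -0.23 for Izumo1, 0.21 for Rasip1 and -0.80 for Mamstr, and none passed.

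Out of 11238 protein coding genes averaging at least 10 CPM, the 3 whose levels followed Fut1 most closely over the 6 libraries were Tnfrsf9, Stra6 and Ifi204, with Pearson's r of log2(CPM + 1) of 0.999, 0.997 and 0.996. For Fut2 they were Mybph (0.999), Adora1 (0.998) and Agr2 (0.996). Fut1 and Fut2 themselves had r = -0.73. With 6 libraries in 2 populations these values describe likeness only.

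The enzymes that place fucose in alpha-1,3 linkage, as in the Lewis X structures, were scarcer. Fut4 is a broad alpha-1,3 enzyme of leukocytes and other cells, Fut7 the enzyme that completes sialyl Lewis X on selectin ligands, and Fut9 an enzyme of Lewis X known from brain and other tissues. Fut4 was at 24.4, 10.4 and 12.6 CPM in non-tuft-like and 12.3, 8.04 and 12.01 CPM in tuft-like mTEC. The libraries overlapped and the log2 fold change was -0.55 (SE 0.55, edgeR FDR 1). Fut7 was at 0.505, 1.34 and 0.572 CPM in non-tuft-like mTEC and at 1.74, 1.96 and 9.75 CPM in tuft-like mTEC.

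The Fut7 difference rested on tuft-like replicate 3, which held 353 of its reads, while the other libraries held 16 to 67. Its log2 fold change of 2.47 (SE 1.32, edgeR FDR 0.757) became 1.15 without that library. Per length, only there did Fut7 exceed the olfactory 99th percentile. Leukocytes are a known site of Fut7 and Fut4, so their markers were read in the same libraries. The gate that the study describes for tuft-like mTEC starts from CD45-negative, EpCAM1-positive cells. Ptprc, which encodes CD45, was at 3.41, 10.9 and 11.7 CPM in non-tuft-like and 33.7, 27.6 and 8.31 CPM in tuft-like mTEC. The 8 granulocyte and monocyte genes summed to 391, 305 and 233 CPM in non-tuft-like and 173, 143 and 186 CPM in tuft-like mTEC, with Lyz2 the most abundant, and none of the 8 passed the test. The granulocyte genes did not move as 1 group in tuft-like replicate 3, where Fut7 was highest. There Itgam, Csf3r, Ly6g and Elane were at 0 counts and Mpo at 1, S100a8 was lowest of the 6 libraries at 2.24 CPM, and Lyz2 (170 CPM) and S100a9 (13.8 CPM) were the highest of the tuft-like libraries. Elane was also at 0 in replicate 2 of both populations, and Ly6g in non-tuft-like replicate 1. The T cell list of 6 genes summed to 21.6, 31.4 and 23.1 CPM against 49.9, 38.4 and 11.3 CPM, and none passed. In tuft-like replicate 3 its most abundant gene Ptprc had 301 counts, Lck 95, Cd4 10 and Cd3e 2, with Cd3d and Cd8a at 0, and each of the latter was also at 0 in a non-tuft-like library. Of the 4 dendritic cell and macrophage genes, Cd68 passed and fell, and Itgax was at 0 in tuft-like replicate 3. The part of leukocytes in the Fut7 and Fut4 levels was not tested.

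Fut9 was at 0.631, 12.8 and 11.9 CPM in non-tuft-like and 3.68, 2.37 and 9.64 CPM in tuft-like mTEC. It varied as much within as between populations (log2 fold change -0.69, SE 1.07, edgeR FDR 1). With 1 library left out, its log2 fold change ranged from -1.52 to -0.25, and it passed in no fit. Fut10 and Fut11 are placed with the alpha-1,3 family by sequence. Fut10 was at 1.80, 1.06 and 4.42 CPM in non-tuft-like and 7.98, 6.28 and 0.055 CPM in tuft-like mTEC, the last from 2 reads. Its highest levels lay in the 3 libraries with the largest olfactory receptor background, and it was almost absent from the library with the smallest, though the part of that background in its level was not tested. Its log2 fold change was 0.97 (SE 1.44, edgeR FDR 1). Neither Fut9 nor Fut10 exceeded that olfactory 99th percentile in any library, under either length.

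**Figure D3:**
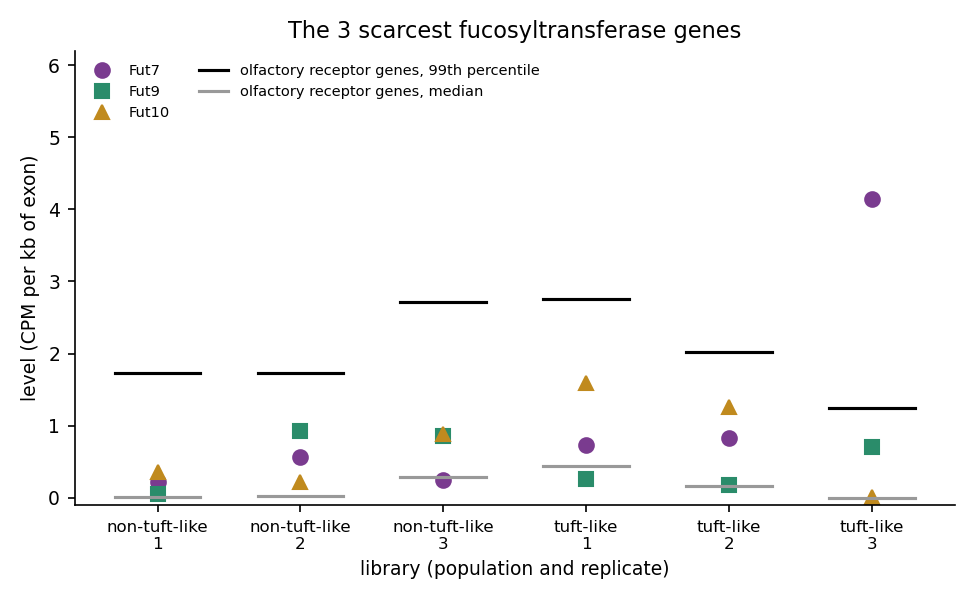
Levels of Fut7, Fut9 and Fut10 in CPM per kb of exon in each library, with lines at the median (grey) and the 99th percentile (black) of 1134 olfactory receptor genes in the same library. Only Fut7 in tuft-like replicate 3, at 4.14 CPM per kb, lies above the black line.

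Fut11 was at 15.3, 36.1 and 38.8 CPM in non-tuft-like and 28.2, 36.5 and 37.1 CPM in tuft-like mTEC. The levels overlapped, with a log2 fold change of 0.17 (SE 0.41, edgeR FDR 1). Under either length it was above the olfactory 99th percentile in all 6 libraries.

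Fut8 adds the alpha-1,6 core fucose of N-glycans. It was at 65.9, 64.5 and 62.0 CPM in non-tuft-like and 54.2, 90.6 and 155.3 CPM in tuft-like mTEC. The non-tuft-like libraries lay close together at 64.2 ± 1.96 CPM and within the wide tuft-like range (mean 100.1 ± 51.2 CPM, SD, n = 3 each). The log2 fold change of 0.64 had a 95% interval of -0.17 to 1.46 and did not pass (edgeR FDR 0.835). Its exons overlap a transcript on the other strand over 75 bases.

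The enzymes that attach fucose directly to proteins in the endoplasmic reticulum showed no change past the threshold. Pofut1, which modifies EGF-like repeats including those of Notch receptors, was at 38.2, 32.5 and 26.1 CPM in non-tuft-like and 15.1, 29.0 and 28.3 CPM in tuft-like mTEC. Pofut2, which modifies thrombospondin repeats, was at 60.0, 61.4 and 44.3 against 48.9, 48.8 and 86.6 CPM. Both overlapped between populations. Log2 fold changes were -0.42 (95% interval -1.27 to 0.43) for Pofut1 and 0.15 (-0.56 to 0.87) for Pofut2, each with an edgeR FDR of 1.

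**Figure D4:**
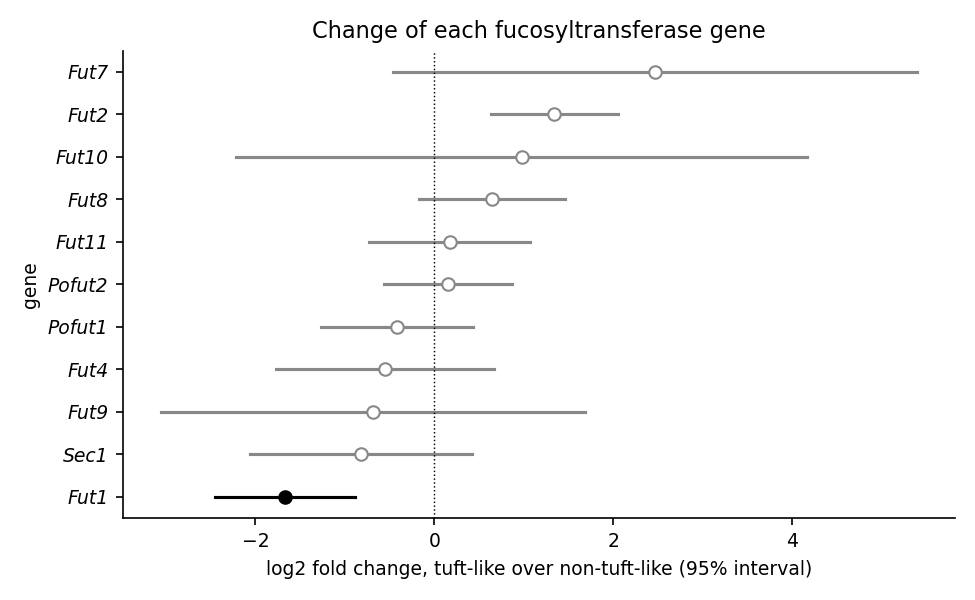
Log2 fold change of the 10 fucosyltransferase genes and Sec1 in tuft-like over non-tuft-like mTEC, with 95% intervals from the edgeR fit (black, FDR under 0.05; grey, not). The intervals of Fut1 and Fut2 lie on opposite sides of 0, and those of the other genes include it.

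In order of mean level per length of all exons, the genes in non-tuft-like mTEC ran Fut1, Fut2, Fut8, Fut11, Pofut2, Fut4, Pofut1, Fut9, Fut10 and Fut7. In tuft-like mTEC they ran Fut2, Fut1, Fut8, Fut11, Pofut2, Fut4, Pofut1, Fut7, Fut10 and Fut9. In non-tuft-like mTEC the libraries did not overlap between Fut1 and Fut2, between Fut2 and Fut8 and between Pofut1 and Fut9, and they overlapped between all other neighbours in the order. In tuft-like mTEC they did not overlap between Fut2 and Fut1 and between Pofut2 and Fut4, and they overlapped elsewhere, Fut1 (12.7 ± 5.86 CPM per kb) and Fut8 (12.7 ± 6.48) included. By the transcript length the leading genes were Fut1, Fut2, Pofut2 and Fut8 in non-tuft-like mTEC (43.8, 40.0, 24.1 and 19.1 CPM per kb) and Fut2, Fut8, Pofut2 and Fut1 in tuft-like mTEC (101, 29.8, 26.8 and 13.8 CPM per kb). Fut2 was highest in tuft-like mTEC under both lengths, whereas the place of Fut1 there depended on the length.

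The rest of the fucosylation pathway was read from lists of 71 genes, of which 70 could be tested. Of these, 4 rose and 1 fell in tuft-like mTEC, together 7.14%, beside 2.11% of all tested genes and 5.84% of those averaging at least 10 CPM. Their median log2 fold change was 0.23. The donor route gave no call in the edgeR fit reported. None of 6 genes for making and moving GDP-fucose passed there, including Tsta3, the epimerase-reductase of the last step (log2 fold change 0.89, edgeR FDR 0.414), and Gmds, the dehydratase before it (0.30, FDR 1). Of the alternative fits, only that with a minimum of 10 CPM in 3 libraries called Tsta3. Neither of the 2 fucosidase genes passed. Fuca2 had a log2 fold change of 0.23, and Fuca1 stood at 149 ± 7.16 and 148 ± 40.3 CPM (SD, n = 3 each).

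Among 22 tested genes that build galactose-ended acceptor chains, 3 beta-1,4-galactosyltransferase genes rose and none fell. B4galt4 went from 4.23, 8.18 and 11.5 CPM in non-tuft-like to 27.9, 41.1 and 62.9 CPM in tuft-like mTEC, a log2 fold change of 2.47 (edgeR FDR 0.0293). B4galt5, which acts with B4galt6 in making lactosylceramide, went from 10.5, 8.79 and 13.4 to 42.8, 37.2 and 60.8 CPM (2.10, FDR 0.0164). B4galt6 went from 4.42, 5.98 and 6.80 to 35.6, 30.3 and 42.8 CPM (2.66, FDR 0.00982). None of the 3 overlapped between populations. B4galt6 passed in all 15 other fits, while B4galt4 missed the threshold when 1 of 4 libraries was left out, namely non-tuft-like replicates 1 and 2 (edgeR FDR 0.0733 and 0.104) and tuft-like replicates 2 and 3 (0.0846 and 0.0726), and B4galt5 when non-tuft-like replicate 1 or 2 was (0.0561 and 0.104). The most abundant genes of the list were Gcnt2, which branches poly-N-acetyllactosamine (0.71, FDR 0.509), and B3galt5, which makes type 1 chains (-0.19, FDR 1). The genes that follow were named after their values were seen, and none passed. B4galt1 was lower without overlap, at 70.4, 63.5 and 62.5 against 34.2, 45.7 and 48.0 CPM (-0.62, FDR 0.537). B4galt2 and B4galt3 had log2 fold changes of 0.49 and 0.52. B3gnt2 was higher without overlap (2.68, FDR 0.0803) and passed in 4 of the 9 other fits to the 6 libraries.

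Sialyltransferases and some other enzymes can cap the same galactose in place of fucose. Of 12 genes for sialyltransferases and other enzymes that act on terminal galactose, 1 passed. St6gal2, an alpha-2,6-sialyltransferase, rose from 28.0, 29.8 and 20.9 CPM in non-tuft-like to 142, 181 and 207 CPM in tuft-like mTEC, a log2 fold change of 2.75 (SE 0.30, edgeR FDR 0.00105), and passed in all 15 other fits. Over the 6 libraries it was the most abundant gene of its list by CPM, followed by St3gal6 (log2 fold change 0.16, FDR 1), whereas in non-tuft-like mTEC alone St3gal6 averaged 33.9 CPM and St6gal2 26.2 CPM.

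For the substrate side of core fucose, none of 9 N-glycan branching and trimming genes passed. Their median log2 fold change was 0.50 and 8 of 9 were above 0, with Mgat4a (0.23) and Mgat5 (0.22) the most abundant. For O-fucose, 1 of 13 genes for Notch receptors, their ligands and the enzymes that extend O-linked sugars passed, and the median was -0.76. Notch1, a substrate of Pofut1, fell from 103, 162 and 117 CPM to 49.4, 30.6 and 17.7 CPM (log2 fold change -1.97, edgeR FDR 0.0300). Leaving out non-tuft-like replicate 2 gave an FDR of 0.112, leaving out its replicate 3 gave 0.0508 and leaving out tuft-like replicate 2 gave 0.121. The most abundant genes of this list, Notch2 and Poglut1, had log2 fold changes of -1.05 (edgeR FDR 0.393) and -0.76 (FDR 0.265). None of 5 genes for selectin ligand partners passed, and the most abundant were Cd24a (1.35, FDR 0.0950) and Glg1 (-0.20, FDR 1). Cd24a passed in 8 of the 9 other fits to the 6 libraries, with an edgeR, limma or DESeq2 FDR between 0.000450 and 0.425 over all 9. Notch3, named after its values were seen, stood at -1.64 on the log2 scale with an edgeR FDR of 0.0560, short of the threshold, and passed in 6 of these 9.

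**Figure D5:**
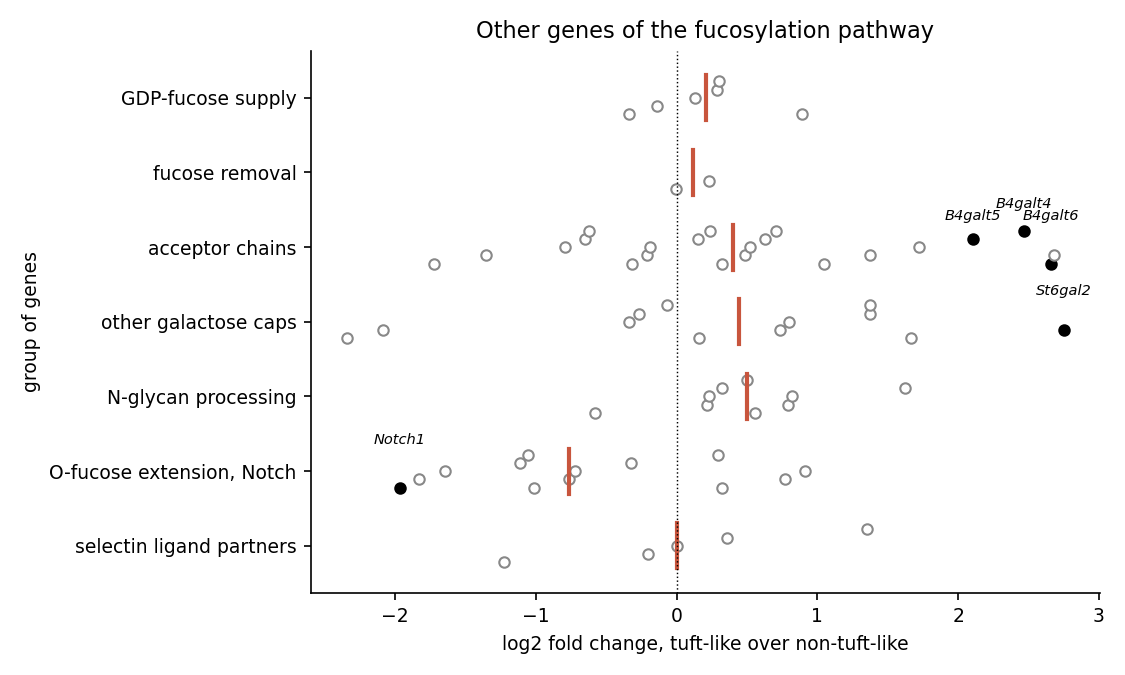
Log2 fold change in tuft-like over non-tuft-like mTEC of the 70 tested pathway genes outside the 10 fucosyltransferases, by role, with a red line at each median. Filled points passed an FDR of 0.05 in edgeR and are named, 4 above 0 and Notch1 below.

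Other differences between the populations stood beside the lower Fut1. Markers of mature mTEC were lower, with 3 of 4 listed genes, Aire, H2-Aa and Fezf2, passing the test. Aire stood at 341, 299 and 235 CPM in non-tuft-like and 19.3, 23.4 and 18.8 CPM in tuft-like mTEC, and H2-Aa, an MHC class II gene, at 1883, 1974 and 1522 CPM against 274, 366 and 694 CPM, although both populations were sorted as low for MHC class II. H2-Ab1, another MHC class II gene, fell by 2.14 on the log2 scale (edgeR FDR 0.0400). The whole list summed to 2452, 2530 and 2007 CPM against 329, 424 and 756 CPM, with H2-Aa the most abundant. Of 6 epithelial and medullary genes listed, 3 had positive and 3 negative log2 fold changes. Only Krt14, a basal keratin, passed, and it fell by 3.49 on the log2 scale (edgeR FDR 0.000885). The others were Krt5 at -3.02 (edgeR FDR 0.0985), Cldn4 at -1.01, Epcam at 0.10, Cldn3 at 0.24 and Krt8 at 0.67. The list summed to 4036, 4313 and 3835 CPM in non-tuft-like and 3051, 4619 and 7135 CPM in tuft-like mTEC, led by Krt8. Markers of other cell types differed in direction. The 5 cortical epithelial genes summed to 149, 378 and 304 CPM in non-tuft-like and 125, 115 and 102 CPM in tuft-like mTEC, and their log2 fold changes had a median of -0.99. None of them passed, although the 2 most abundant, Prss16 (-2.01, edgeR FDR 0.0956) and Ly75 (-0.99, FDR 0.130), did not overlap between populations. Of the 4 dendritic cell and macrophage genes, which summed to 43.4, 47.7 and 64.5 CPM in non-tuft-like and 24.3, 14.1 and 3.98 CPM in tuft-like mTEC, the most abundant, Cd68, stood at 32.2, 37.1 and 48.7 against 3.60, 4.44 and 3.92 CPM (log2 fold change -3.30, edgeR FDR 0.00280). S100a8 and S100a9, abundant in granulocytes, did not overlap between populations and were 4.41-fold and 3.99-fold lower in the edgeR fit, with FDR values of 0.299 and 0.137 that did not pass. The 3 erythroid genes, which summed to 201, 326 and 269 against 97.3, 145 and 74.9 CPM with Hba-a1 the most abundant, were lower without overlap, and none passed. The 3 endothelial genes had positive log2 fold changes, with sums of 17.1, 16.3 and 13.0 CPM in non-tuft-like and 136, 14.2 and 9.11 CPM in tuft-like mTEC, where tuft-like replicate 1 held most of Pecam1, the most abundant, and none passed. The 3 fibroblast genes, led by Dcn, summed to 24.1, 28.4 and 42.5 against 69.1, 57.8 and 13.3 CPM, with positive log2 fold changes that did not pass. The 3 B cell genes, led by Ms4a1, summed to 8.42, 5.13 and 15.1 against 13.7, 11.7 and 0.0552 CPM, and none passed. The part of these differences in the Fut1 and Fut2 levels was not tested.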

How the data were processed

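RNA from sorted mTEC was sequenced in 6 libraries (3 tuft-like, 3 non-tuft-like). Per the processing notes, the authors used Trimmomatic 0.36 for trimming, STAR 2.7.3a for alignment to mm10 and HTSeq for read counts per gene. The annotation release and the strand setting are not given in the sources used here. The deposited values are whole counts, and 5 summary rows and 92 ERCC rows, all at 0, were left out of library sizes and tests. Symbols and exon lengths came from GENCODE M21, which matched 52489 of 52636 gene rows. Counts were filtered with filterByExpr, scaled by TMM and tested with edgeR 4.0.16 (R 4.3.3) by the quasi-likelihood test with Benjamini-Hochberg adjustment over all 32496 tested genes and a threshold of 0.05. The procedure was checked on simulated data. Alternatives were DESeq2 1.42.0, limma 3.58.1 (voom), other scaling and filters, a background subtraction, a replicate block and leaving out each library. All 10 fucosyltransferase genes are named, and from each pathway list those past the threshold and the 2 most abundant. Cell type marker lists are given by their sums and leading genes, except that the tuft and sort gate genes are given without sums. The members and lists were chosen with earlier results of these data known.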

Additional observations from a re-analysis of the deposited data

How the results depend on the processing

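The direction of Fut1 and of Fut2 held in all 15 alternative fits. Of the 10 fucosyltransferase genes, 1 (Fut1) was called in the edgeR fit reported, and 2 (Fut1 and Fut2) with RLE normalization, library size only, DESeq2, limma voom, no filter on low counts, a minimum of 1 CPM or of 10 CPM in 3 libraries, or background subtracted, and 0 to 1 with 1 library left out. Calls over all genes were 687 as reported, 1045 with library size only, 2043 with DESeq2, 1127 with no filter, 1533 at 10 CPM, 1057 with background subtracted, and 376 to 922 with 1 library left out (530, 379 and 531 on omitting non-tuft-like replicates 1, 2 and 3, and 743, 376 and 922 on omitting tuft-like replicates 1, 2 and 3). Other pathway genes called were 5 as reported, 10 with DESeq2, 8 with no filter, 9 at 10 CPM, and 2 to 7 with 1 library left out. Notch1 missed the threshold with library size only (FDR 0.0767). The sign turned for 3 genes that passed in no fit: Fut10 was -0.61 under limma voom, with 1 library left out Fut11 ranged from -0.16 (non-tuft-like replicate 1 omitted) to 0.36, and Pofut2 from -0.22 (tuft-like replicate 3 omitted) to 0.30, with -0.02 when non-tuft-like replicate 3 was omitted. With the longest coding transcript as length, an alternative chosen after seeing the data, the mean ratio of Fut2 to Fut1 was 0.907 in non-tuft-like and 7.95 in tuft-like mTEC in place of 0.533 and 4.67, and the sum of Fut1, Fut2 and Sec1 was 90.9 and 119 CPM per kb in place of 69.5 and 71.9, since Fut2 is divided by a shorter length. At 10 CPM, Fut7, Fut9 and Fut10 were not tested. The cause of these changes was not tested. The median log2 fold change of all genes was 0.02 as reported, and lay between -0.20 (tuft-like replicate 1 omitted) and 0.15 (non-tuft-like replicate 3 omitted).

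The labels do not say whether replicate numbers pair the libraries. The correlations of deviations between libraries of the same number were 0.0883, -0.00169 and -0.0375 over 11593 genes. They cannot decide the pairing, because the share of reads outside annotated exons ran in opposite orders. It rose from replicate 1 to 3 in non-tuft-like mTEC and fell in tuft-like mTEC. With the number as a replicate block, 737 genes were called, among them Fut1 (log2 fold change -1.77, FDR 0.0304) and 6 other pathway genes, and Fut2 had a log2 fold change of 1.33 and an FDR of 0.193.

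With 3 libraries a population, an FDR that misses the threshold does not show equal levels. Over the 6 libraries Fut7 had 16 to 353 reads, Fut9 20 to 600 and Fut10 2 to 215. The levels of these genes were mostly within the range of the olfactory receptor genes. The share of reads outside annotated exons ran from 19.7% to 61.6% between libraries.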
